A study of Homo sapiens with 9 samples.

Results

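Ezrin (EZR), radixin (RDX) and moesin (MSN), together the ERM proteins, and the ERM kinases SLK and STK10 were followed as RNA in a human breast cancer cell line kept in thin or thick medium. The members were chosen by name, as the 3 ERM genes and these 2 kinases, and are 5 of the 60664 genes counted. This choice was made with earlier results of these data known. RNA-seq was performed on 9 samples of MDA-MB-231, a triple-negative breast cancer line, after 6 days of culture, with 3 samples in each of 3 groups. SC cells, which stably carry a non-targeting scramble hairpin, were kept at 0.77 cP, the viscosity of plain medium, or at 8 cP, reached with methylcellulose. shTRPV4 cells, which stably carry a short hairpin RNA against the calcium channel TRPV4, were kept at 8 cP. All 3 groups are puromycin-selected lentiviral lines, so the controls carry the vector as well. shTRPV4 cells in plain medium were not analysed here, so whether the hairpin acts differently at the 2 viscosities could not be tested.

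ERM proteins link the actin cortex to the plasma membrane. In the closed state the head of the protein covers its own actin-binding tail. Binding to the lipid PIP2 and phosphorylation of a threonine near the C terminus open the protein, and SLK and STK10 (also called LOK) are the kinases best known for this step in epithelial cells. Open ERM proteins hold membrane proteins such as CD44 and, through the scaffold NHERF1, others at the cortex.

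The question put to these data was whether the RNAs of the ERM proteins and their kinases differ with viscosity or with the TRPV4 hairpin. The codon of the regulatory threonine is shown with its flanks because it is the site that SLK and STK10 act on and because it shows how alike the 3 ERM genes are there. Each sequence is written on the coding strand, 5′ to 3′, in GRCh38, with the threonine codon in capitals.
EZR: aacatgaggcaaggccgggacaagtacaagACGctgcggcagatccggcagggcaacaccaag
RDX: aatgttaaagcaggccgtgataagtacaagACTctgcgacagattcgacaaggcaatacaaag
MSN: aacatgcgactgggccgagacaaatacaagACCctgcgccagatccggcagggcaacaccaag
The EZR sequence lies at chr6:158766944-158767006 on the minus strand and holds codon 567. The RDX sequence lies at chr11:110231899-110231961 on the minus strand and holds codon 564. The MSN sequence lies at chrX:65739801-65739863 on the plus strand and holds codon 558. In each gene the codon is number 20 from the end of the coding sequence and lies in the last exon, which is exon 14 of 14 in EZR and RDX and exon 13 of 13 in MSN. Each gene uses a different threonine codon. Over these 63 bases EZR and MSN were identical at 55 positions, EZR and RDX at 47 and RDX and MSN at 45. Over the whole coding sequence the identity was 73.5% for EZR and MSN, 71.2% for RDX and MSN and 70.3% for EZR and RDX. SLK and STK10, 2 kinases of the STE20 family, were 64.2% identical over 2890 aligned coding bases.

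The longest exact run shared by any 2 ERM transcripts was 32 bases, between EZR and MSN, and SLK and STK10 shared a run of at most 17. The pseudogene copies share longer exact runs with their parents, up to 115 bases in RDXP1 and 113 in MSNP1, so that whole reads from these stretches may not be told apart. MSNP1, a copy of MSN, held 197 to 386 counts in a sample, at most 0.569% of the MSN count. The radixin copies RDXP1, RDXP2 and RDXP3 and the ezrin copy EZRP1 held 0 to 8 counts. EZR-AS1, which shares 24 exon bases with EZR on the opposite strand, held 0 or 1 count.

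The genes lie on 5 chromosomes. EZR (ENSG00000092820) spans chr6:158765741-158819368, RDX (ENSG00000137710) chr11:109864295-110296712, MSN (ENSG00000147065) chrX:65588377-65741931, SLK (ENSG00000065613) chr10:103967140-104029233 and STK10 (ENSG00000072786) chr5:172042079-172188224.

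Sample totals ran from 64571681 to 103518036 counts, and 18264 genes, all 5 members among them, had enough counts to be tested. TRPV4 was counted 40, 28 and 54 times in SC cells at 0.77 cP, 64, 45 and 24 times in SC cells at 8 cP and 7, 1 and 13 times in shTRPV4 cells. It was lower in shTRPV4 cells than in SC cells at 8 cP by 2.51 ± 0.49 on the log2 scale (SE, adjusted p = 0.00219), from few counts in every sample. VIM, CAV1, AXL, CD44 and MSN, which mark this mesenchymal-like line, summed to between 4652 and 4977 CPM (counts scaled to a common library size) in every sample. This sum includes MSN, itself a member, and hides opposite moves of single genes. VIM fell with viscosity (1049 to 931 CPM, edgeR adjusted p = 0.00950) and with the hairpin (931 to 766, 0.000193). AXL rose with viscosity (1217 to 1422 CPM, edgeR adjusted p = 0.0155) and fell with the hairpin (1422 to 1148, 0.00170). MSN rose with the hairpin (636 to 767 CPM). Of 8 luminal epithelial markers, CDH1, ESR1 and PGR stayed under 1 CPM, and KRT8, KRT18, KRT19, ERBB2 and EPCAM were expressed. The summed level of these 8 was 2482 to 2740 CPM in SC cells at 0.77 cP, 2013 to 2186 at 8 cP and 1899 to 2191 with the TRPV4 hairpin. KRT19, KRT8 and KRT18 fell with viscosity (edgeR adjusted p = 0.00245, 0.00403 and 0.00642), and their part in the results below was not tested. Of 8 markers of leukocytes, fibroblasts and endothelium, PTPRC, CD3E, COL3A1, VWF and CDH5 stayed under 1 CPM in every sample. The summed level of the 8 was 15.6 to 19.0 CPM in SC cells at 0.77 cP and 11.7 to 12.8 in SC cells at 8 cP. In shTRPV4 cells it was 9.93 to 10.8 CPM. Nearly all of this sum came from CD14, COL1A1 and PECAM1. Nothing in the labels says that the samples of a group were separate cultures, so the p-values measure the spread between these samples. In bulk RNA, fewer cells of a kind and less RNA per cell cannot be told apart.

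All 5 members were well expressed. Their counts ran from 8445 for STK10 to 72694 for MSN, so the counting error of a single value was at most 1.09%. The shares of all genes given below cover every gene tested and were not matched to the members for count. CPM here are scaled by the trimmed mean of M values (TMM), and they compare samples for 1 gene, not genes with each other.

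EZR, the ERM protein that typifies epithelial microvilli, was at 484, 468 and 510 CPM in SC cells at 0.77 cP. In SC cells at 8 cP it was at 475, 485 and 487 CPM, and in shTRPV4 cells at 514, 496 and 518 CPM. The shTRPV4 samples lay just above the SC samples at 8 cP without overlap, and the 2 SC groups overlapped.

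RDX, the ERM protein known from liver canaliculi and hair cell stereocilia, was at 218, 228 and 230 CPM in SC cells at 0.77 cP. It was at 249, 249 and 246 CPM in SC cells at 8 cP and at 227, 230 and 229 CPM in shTRPV4 cells. SC cells at 8 cP stood above both other groups, which overlapped.

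MSN, the ERM protein that prevails in leukocytes and mesenchymal cells, was at 651, 669 and 684 CPM in SC cells at 0.77 cP. It was at 644, 627 and 637 CPM in SC cells at 8 cP and at 793, 753 and 753 CPM in shTRPV4 cells. The shTRPV4 samples were higher than all 6 SC samples.

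SLK was at 213, 223 and 213 CPM in SC cells at 0.77 cP, at 222, 225 and 225 CPM in SC cells at 8 cP and at 185, 199 and 188 CPM in shTRPV4 cells. STK10 was at 135, 132 and 147 CPM in SC cells at 0.77 cP, at 148, 145 and 147 CPM in SC cells at 8 cP and at 130, 121 and 121 CPM in shTRPV4 cells. For both kinases the shTRPV4 samples were lower than all 6 SC samples. The third STK10 sample at 0.77 cP was as high as the 8 cP samples.

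**Figure D1:**
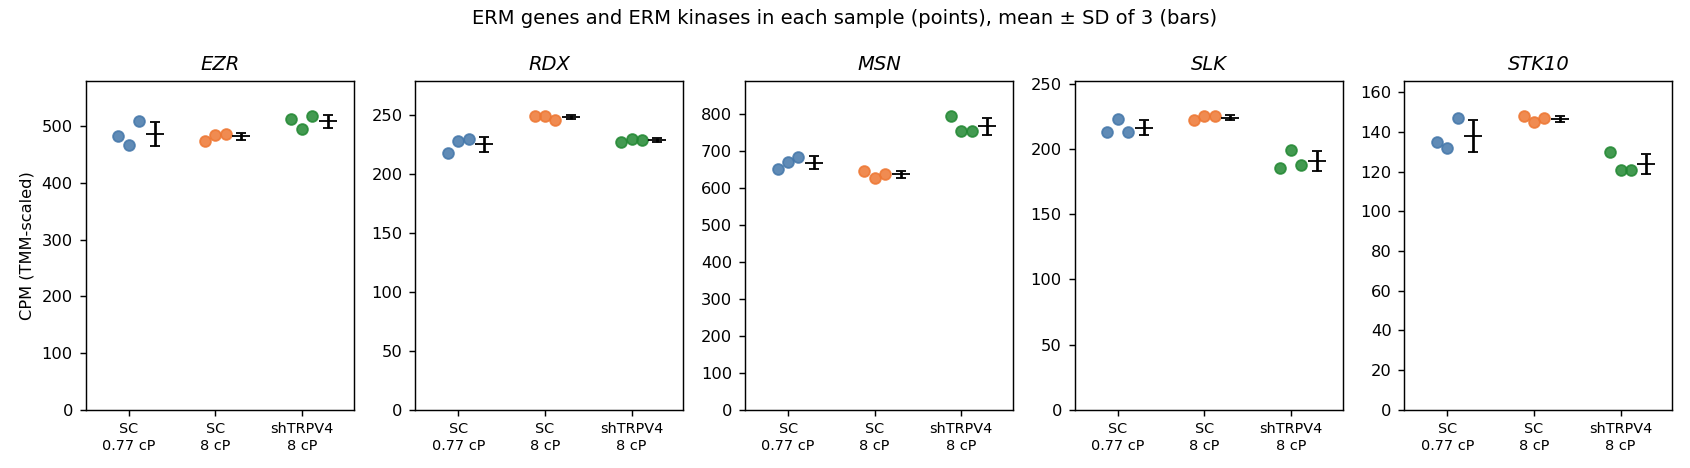
Each panel plots the level of 1 gene in CPM, from 0, for the 9 samples (points) with the mean and SD of the 3 samples of each group (bars). RDX is highest in SC cells at 8 cP, MSN is highest in shTRPV4 cells at 753 to 793 CPM, and SLK and STK10 are lowest there.

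The first comparison asked what 6 days at 8 cP did in SC cells. RDX was the 1 member of 5 that changed, where 19.3% of all genes tested did, 9.57% upward and 9.69% downward. RDX rose by 9.81%, from 226 ± 6.44 to 248 ± 1.90 CPM (means of 3 with SD). Its log2 fold change was 0.13 ± 0.040 (SE, edgeR adjusted p = 0.0284). The call is fragile, though the log2 fold change stayed between 0.12 and 0.16 in all alternative fits. The call was kept with DESeq2 (adjusted p = 0.00424), with other scalings (0.0268 to 0.0380) and with at least 10 counts in every sample (0.0259). It was lost with no filter on low counts (adjusted p = 0.0573) and in 5 of 9 fits that left out a sample, namely without replicate 1 (0.107) or 2 (0.0590) at 0.77 cP or without replicate 1 (0.0687), 2 (0.0712) or 3 (0.0736) at 8 cP.

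The other members differed by less than the test could call. EZR had a log2 fold change of −0.015 (95% interval −0.11 to 0.078) and MSN one of −0.071 (−0.16 to 0.019). SLK was at 216 ± 5.83 and 224 ± 1.75 CPM, a log2 fold change of 0.054 (−0.037 to 0.14). STK10 was at 138 ± 8.18 and 147 ± 1.27 CPM, a log2 fold change of 0.088 (−0.016 to 0.19, adjusted p = 0.228), but of 0.15 (adjusted p = 0.0353) without replicate 3 at 0.77 cP. The samples of the 2 groups did not overlap for RDX and MSN, 2 of 5 members, against 38.4% of all genes.

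The second comparison asked what the TRPV4 hairpin did at 8 cP. It uses the same SC samples at 8 cP as the first, so the values of these 2 comparisons are not independent of each other. The call was made for 3 of 5 members, against 20.0% of all genes, 9.02% higher and 11.0% lower. MSN rose by 20.6% (95% interval 13.2 to 28.3), from 636 ± 8.33 to 767 ± 23.4 CPM, a log2 fold change of 0.27 ± 0.042 (adjusted p = 0.000390). SLK fell by 15.0%, from 224 ± 1.75 to 191 ± 7.14 CPM, a log2 fold change of −0.24 ± 0.043 (adjusted p = 0.00122). STK10 fell by 15.4%, from 147 ± 1.27 to 124 ± 5.23 CPM, a log2 fold change of −0.24 ± 0.049 (adjusted p = 0.00274). These 3 calls were kept in every alternative fit and without any 1 sample.

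EZR was at 482 ± 6.43 CPM with the scramble and 509 ± 11.7 CPM with the TRPV4 hairpin, a log2 fold change of 0.079 (95% interval −0.015 to 0.17, adjusted p = 0.236). RDX was at 248 ± 1.90 and 229 ± 1.84 CPM, a log2 fold change of −0.11 (−0.20 to −0.030). Its adjusted p of 0.0552 was just outside the threshold of 0.05, and fell inside with DESeq2 (0.0321), with upper quartile scaling (0.0424), with a stricter count filter (0.0493) and without replicate 1 at 0.77 cP (0.0499). For all 5 members the samples of the 2 groups did not overlap, against 36.3% of all genes. Of the genes called across the whole table, 45.1% were higher in shTRPV4 cells with TMM scaling and 56.1% with library totals alone, which is the comparison where scaling mattered most, and the median of all genes moved by no more than 0.0283 on the log2 scale.

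The third comparison set the shTRPV4 group beside the SC group in plain medium and so joins the hairpin and the viscosity. The same 3 of 5 members were called, against 42.4% of all genes, 20.4% higher and 22.0% lower. MSN was higher by 14.8% (log2 fold change 0.20 ± 0.042, adjusted p = 0.00145) and SLK lower, with a log2 fold change of −0.18 ± 0.043 (adjusted p = 0.00289). STK10 was lower, with a log2 fold change of −0.15 ± 0.049 (adjusted p = 0.0195). The STK10 call was lost with library totals alone (adjusted p = 0.0553) and without replicate 3 at 0.77 cP (0.127) or shTRPV4 replicate 2 (0.0841) or 3 (0.0663). EZR (0.063 ± 0.044, adjusted p = 0.271) and RDX (0.020 ± 0.040, adjusted p = 0.724) did not pass. MSN, SLK and STK10 were also the 3 members whose samples did not overlap, against 50.6% of all genes.

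**Figure D2:**
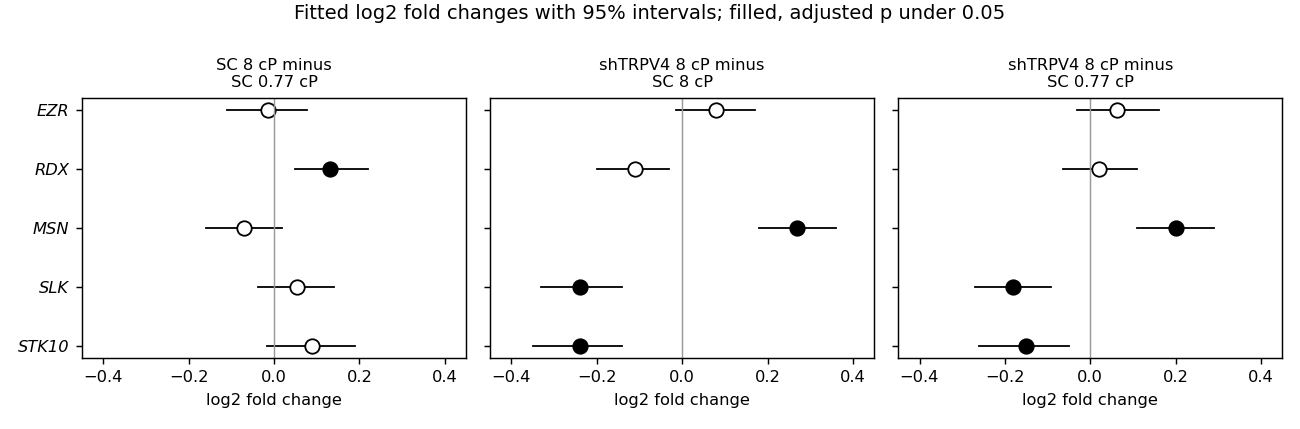
Fitted log2 fold changes (points) of the 5 genes with 95% intervals (lines) in the 3 comparisons; filled points had an adjusted p under 0.05. MSN lies at 0.27 and SLK and STK10 at −0.24 in shTRPV4 against SC cells at 8 cP, while RDX alone is filled for viscosity, at 0.13.

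Within a sample, the balance of the family moved with the hairpin. The ratios below were chosen with these values known, and the smallest p that 3 samples against 3 can give in a two-sided exact permutation test is 0.10. The log2 ratio of MSN to EZR was 0.438, 0.371 and 0.386 in SC cells at 8 cP and 0.626, 0.602 and 0.540 in shTRPV4 cells, a difference of 0.19 (exact permutation p = 0.10). In SC cells at 0.77 cP it was 0.426, 0.516 and 0.424, which overlapped the SC samples at 8 cP and lay below all shTRPV4 samples. The log2 ratio of RDX to EZR was −0.933, −0.962 and −0.988 in SC cells at 8 cP, above all samples of the other groups, which ran from −1.18 to −1.04.

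The balance of the 2 kinases differed between groups by less than the spread of the samples. The log2 ratio of STK10 to SLK averaged −0.65 for SC at 0.77 cP, −0.61 for SC at 8 cP and −0.62 for shTRPV4, and the groups overlapped throughout. The sum of EZR, RDX and MSN was 1381 ± 37.9 CPM for SC at 0.77 cP, 1366 ± 4.51 for SC at 8 cP and 1505 ± 27.8 for shTRPV4, and that of SLK and STK10 was 354 ± 6.07, 371 ± 0.993 and 315 ± 5.00 CPM. The ERM sum was therefore 3.90, 3.68 and 4.78 times the kinase sum, with no overlap between any 2 groups. Of all genes tested, 36.3% to 50.6% did not overlap either, depending on the comparison. This ratio is built from the same genes and samples as the calls above and is not independent of them. The ERM sum itself overlapped between the 2 SC groups (exact permutation p = 0.90), whereas the kinase sum did not overlap between any 2 groups. These sums weigh each gene by its read count and do not count molecules.

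**Figure D3:**
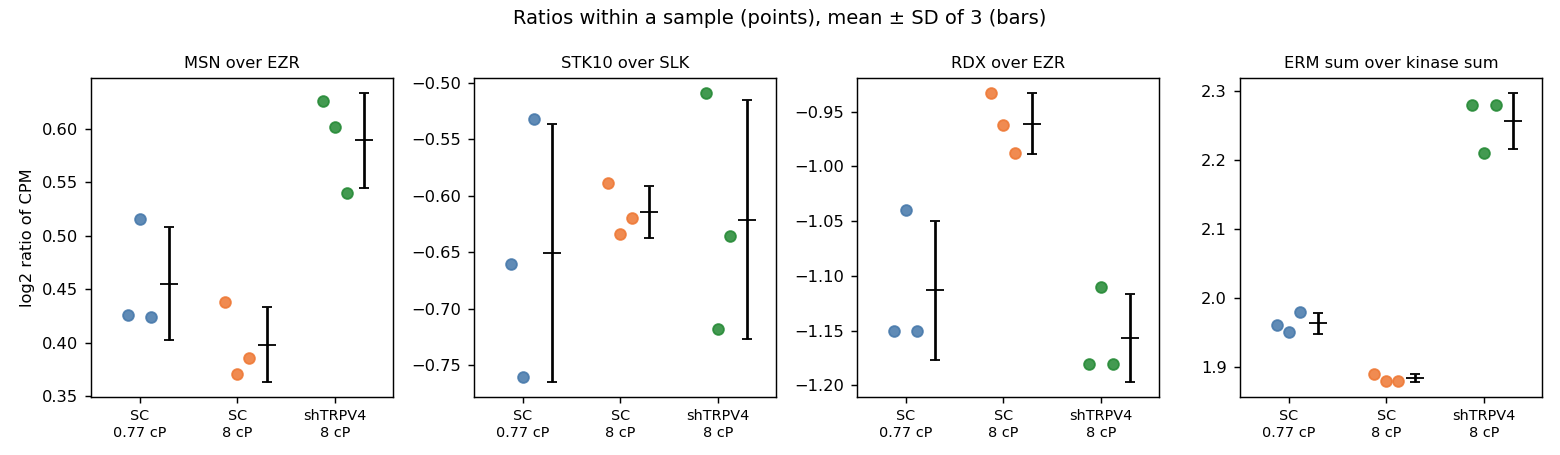
Log2 ratios of CPM within each of the 9 samples (points) with the mean and SD of each group (bars); the vertical axes differ between panels and do not start at 0. MSN over EZR and the ERM sum over the kinase sum are highest in shTRPV4 cells, RDX over EZR is highest in SC cells at 8 cP, and STK10 over SLK overlaps in all groups.

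Levels of different genes were compared per kilobase. With the union of all annotated exons as the length, EZR was at 150 ± 5.37 CPM per kilobase over the 9 samples, MSN at 60.5 ± 5.33 and RDX at 27.5 ± 1.28 (SD, n = 9). This order depends on the length. MSN has 11407 bases of annotated exons but 3960 in its MANE Select transcript, the agreed reference transcript of a gene, whereas EZR has 3286 and 3052. With the MANE Select length MSN was at 174 ± 15.4 and EZR at 162 ± 5.79 CPM per kilobase, and their samples overlapped in both SC groups but not in shTRPV4 cells. RDX was the lowest ERM gene under every length.

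As a share of the summed ERM level per exon union, MSN held 25.1% ± 0.562, 24.1% ± 0.405 and 27.0% ± 0.595 for SC at 0.77 cP, SC at 8 cP and shTRPV4, in that order (SD, n = 3). RDX held 11.4% ± 0.353, 12.6% ± 0.161 and 10.8% ± 0.275, and EZR 63.5% ± 0.915, 63.4% ± 0.498 and 62.2% ± 0.583. The MSN and RDX shares did not overlap between any 2 groups (exact permutation p = 0.10, the smallest possible). The EZR shares overlapped in every comparison. The 3 shares have a fixed sum, so a rise in 1 gene lowers the shares of the others. RDX itself was at 229 CPM in shTRPV4 cells and 226 CPM in SC cells at 0.77 cP, and these samples overlapped. Of single genes, 36.3% to 50.6% did not overlap either, depending on the comparison. Among the kinases, SLK was at 26.7, 27.7 and 23.5 CPM per kilobase of exon union in the 3 groups and STK10 at 15.5, 16.4 and 13.9. RDX and SLK, neighbours in this order, overlapped in SC cells at 0.77 cP.

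**Figure D4:**
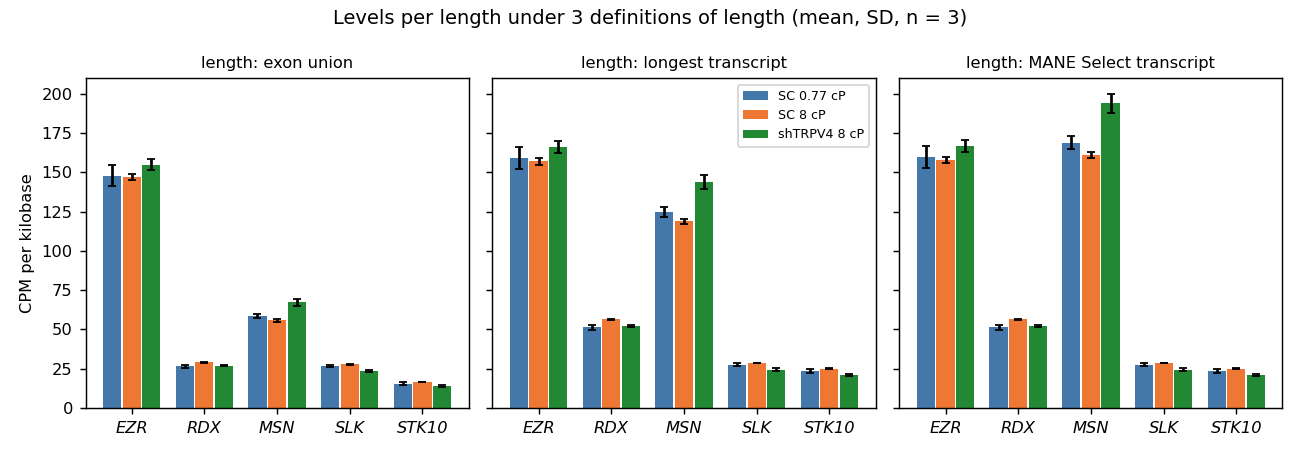
Mean levels in CPM per kilobase (bars, from 0, with SD of 3 samples) of the 5 genes in the 3 groups, with the length taken as the exon union, the longest transcript or the MANE Select transcript. EZR stands above MSN with the first 2 lengths and MSN above EZR with the third, while RDX, SLK and STK10 stay far lower.

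The genes around the ERM proteins were described from 7 lists of 69 genes chosen from general knowledge, 61 of which were tested. The lists, too, were chosen with earlier results of these data known. In SC cells, 8 cP against 0.77 cP, 20 of the 61 (32.8%) were called, 12 higher and 8 lower, where 9.57% of all genes were higher and 9.69% lower. In shTRPV4 against SC cells at 8 cP, 19 (31.1%) were called, 10 higher and 9 lower, where 9.02% of all genes were higher and 11.0% lower. In the third comparison, 40 (65.6%) were called, 23 higher and 17 lower, where 42.4% of all genes were called, 20.4% higher and 22.0% lower. The median log2 fold changes of the pooled lists were 0.020, 0.026 and 0.019, near those of all genes (−0.0065, 0.00064 and −0.011). Taken without sign, the median sizes were 0.094, 0.099 and 0.22, below those of all genes (0.15, 0.15 and 0.23). The higher shares of calls therefore do not go with larger changes. The lists and all genes were not matched for read count, and its part in these shares was not tested. The first count is sensitive to single samples, since it fell to 5 without replicate 1 at 0.77 cP or replicate 3 at 8 cP, to 9 without replicate 2 at 0.77 cP, and to 12 or 13 without replicate 1 or 2 at 8 cP. The second fell to 12 without SC replicate 2 at 8 cP. Of the list genes given with values below, RHOB, VCAM1 and L1CAM kept their viscosity call without any 1 sample, and PRKCI, MAP4K4, LRRK2, PPP1CB, RHOB, ICAM2, SPN, EPB41L1, TNIK and OXSR1 kept their hairpin call. The viscosity calls of PRKCA, PPP1CC, PIP5K1C, ARHGDIA, ARHGAP18, SDC2, EPB41, STK39, STK24 and STK25, and those of RHOC, ARHGAP18, NHERF2, SDC2, EPB41L2, EPB41L4A and STK4 for the hairpin, were lost without at least 1 sample.

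Other kinases reported to act on ERM proteins moved in part. Of 11 tested, 3 rose with viscosity and none fell, and with the hairpin 1 rose and 3 fell. These are 27.3% and 36.4% called, against 19.3% and 20.0% of all genes. Of the 3 that rose with viscosity, protein kinase C alpha (PRKCA), the one reported here, had the highest adjusted p. It rose by 0.14 ± 0.045 on the log2 scale (adjusted p = 0.0449), a call lost with upper quartile scaling and with no filter on low counts. With the hairpin, the atypical protein kinase C PRKCI rose by 0.22 ± 0.043 (0.00246). MAP4K4, a STE20 kinase related to SLK, fell from 518 to 432 CPM, a log2 fold change of −0.26 ± 0.043 (0.000496). LRRK2, a kinase linked to Parkinson's disease, fell from 1.57 to 0.724 CPM, a log2 fold change of −1.11 ± 0.18 (0.000388). CDC42BPA, a kinase activated by Cdc42, was the third that fell.

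Of 5 genes for ERM phosphatases, 1 changed with viscosity and 1 with the hairpin. Each is 20.0% of the list, near the share of all genes called (19.3% and 20.0%). Both encode catalytic subunits of protein phosphatase 1. PPP1CC rose at 8 cP by 0.15 ± 0.043 (adjusted p = 0.0244), and PPP1CB fell in shTRPV4 cells, from 158 to 133 CPM, with a log2 fold change of −0.26 ± 0.052 (0.00267).

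The small GTPase RHOB ran from 81.6 to 112 CPM for SC at 0.77 cP, was at 34.8, 34.3 and 30.8 for SC at 8 cP and at 21.4, 22.8 and 24.7 for shTRPV4. The 3 groups of RHOB did not overlap. Its log2 fold change was −1.57 ± 0.093 with viscosity (adjusted p = 1.7e-08) and −0.54 ± 0.094 with the hairpin (0.000942), and both were larger in size than those of any member. PIP5K1C, which makes PIP2, and ARHGDIA rose with viscosity by 0.21 ± 0.062 (0.0275) and 0.14 ± 0.045 (0.0471). The ARHGDIA call was lost with upper quartile scaling and with no filter on low counts. RHOC fell with the hairpin, with a log2 fold change of −0.19 ± 0.052 (0.0183). The small GTPase RHOA was at 577, 588 and 579 CPM in the 3 groups and passed in no comparison.

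Of 6 tested scaffolds that bind ERM proteins, 1 rose with viscosity and 2 rose with the hairpin. The shares are 16.7% and 33.3%, against 19.3% and 20.0% of all genes called. ARHGAP18, which binds ezrin, rose by 0.26 ± 0.070 with viscosity (adjusted p = 0.0167) and by 0.27 ± 0.070 with the hairpin (0.0138). NHERF2 rose with the hairpin by 0.14 ± 0.047 (0.0480). This call was lost with upper quartile scaling, with only the 6 compared samples fitted, and in 7 of 9 fits leaving out a sample. NHERF1 was at 46.0, 45.6 and 41.7 CPM in the 3 groups and passed in no comparison.

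Membrane proteins that ERM proteins hold fell in part with viscosity. Of 12 tested, 5 fell and none rose, with a median log2 fold change of −0.32 where that of all genes was −0.0065. The 5 are 41.7% of those tested, where 19.3% of all genes were called, 9.69% lower. VCAM1, an adhesion receptor for leukocytes, was at 10.1, 8.50 and 6.83 CPM at 0.77 cP and 3.71, 3.47 and 2.68 CPM at 8 cP, a log2 fold change of −1.36 ± 0.18 (adjusted p = 0.000244). The neural adhesion molecule L1CAM (−0.42 ± 0.062, 0.000518) and the heparan sulphate proteoglycan SDC2 (−0.59 ± 0.13, 0.00761) fell too. ICAM1 and MUC1 were called lower by edgeR (adjusted p = 0.0250 and 0.0282) but not by DESeq2 (0.0609 and 0.0668). Over the same samples the summed level of the leukocyte, fibroblast and endothelial markers was lower as well (11.7 to 12.8 against 15.6 to 19.0 CPM). Its part in this result was not tested. That sum was carried by CD14 (5.86 to 4.25 CPM), COL1A1 (6.40 to 5.03) and PECAM1 (5.04 to 2.75), all called lower. The other 5 markers stayed under 1 CPM, and of these PTPRC was slightly higher at 8 cP (0.0990 to 0.147 CPM).

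With the hairpin, 1 of these 12 membrane partners rose and 2 fell, 25.0% called against 20.0% of all genes. The adhesion molecule ICAM2 rose from 3.44 to 5.67 CPM, by 0.72 ± 0.096 on the log2 scale (adjusted p = 0.000100), and SDC2 fell, with a log2 fold change of −0.53 ± 0.14 (0.0130). SPN, the sialomucin CD43, fell from 34, 30 and 15 counts to 5, 4 and 2 counts (0.00102), so its size rests on very few reads. The hyaluronan receptor CD44 was at 774, 842 and 882 CPM in the 3 groups, with an adjusted p of 0.0546 for viscosity by edgeR (0.0110 by DESeq2) and 0.298 for the hairpin, and passed only in the third comparison (0.19 ± 0.042, 0.00201).

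Of 7 tested relatives of merlin and band 4.1, which share the head domain of ERM proteins, 1 changed with viscosity and 3 with the hairpin. This is 14.3% and 42.9%, against 19.3% and 20.0% of all genes called. EPB41 fell at 8 cP, with a log2 fold change of −0.25 ± 0.076 (adjusted p = 0.0303). In shTRPV4 cells EPB41L1 rose by 0.28 ± 0.052 (0.00151) and EPB41L2 by 0.23 ± 0.070 (0.0283). EPB41L4A fell there, with a log2 fold change of −1.01 ± 0.28 (0.0180). Its counts were 51, 51 and 76 in SC cells at 8 cP and 36, 23 and 22 in shTRPV4 cells. These are few reads, and EPB41L4A shares 2200 exon bases with EPB41L4A-AS1 on the opposite strand, whose part was not tested. The merlin gene NF2 was at 10.1, 10.3 and 10.9 CPM and passed in no comparison.

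Of 16 tested STE20 relatives of SLK and STK10, 5 rose and 1 fell with viscosity, and 4 rose and 1 fell with the hairpin. Called were 37.5% and 31.2%, against 19.3% and 20.0% of all genes. With viscosity STK39 rose by 0.19 ± 0.049 (adjusted p = 0.0126), STK24 by 0.24 ± 0.060 (0.0142), while STK25 fell (0.0259). STK24 shares 7634 exon bases with FARP1 and STK25 shares 1094 with FARP2, both on the opposite strand. Their part was not tested. With the hairpin TNIK rose by 0.45 ± 0.070 (0.000342), OXSR1 by 0.18 ± 0.041 (0.00604) and STK4 by 0.17 ± 0.046 (0.0177). The relative that fell with SLK and STK10 was MAP4K4, given above.

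**Figure D5:**
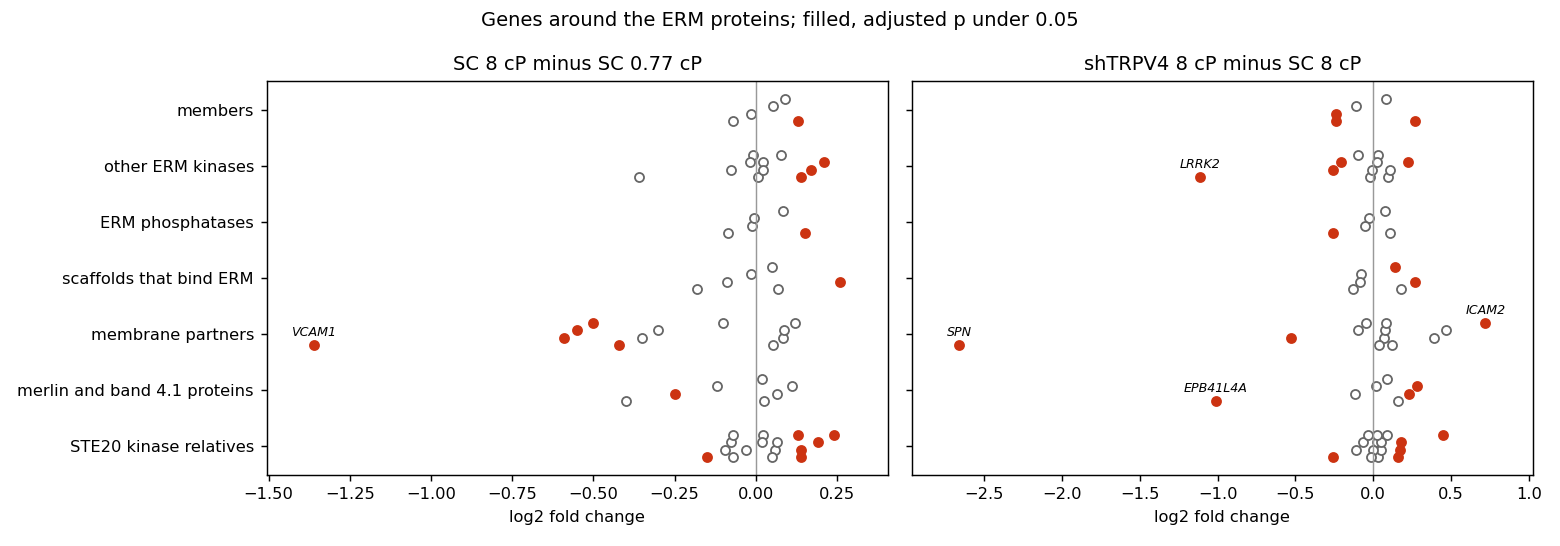
Fitted log2 fold changes of the members and of the tested genes of 6 of the lists (rows), for viscosity in SC cells (left) and for the hairpin at 8 cP (right); filled points had an adjusted p under 0.05 and those past 0.6 in size are named. VCAM1 (−1.36) lies farthest out on the left and SPN (−2.66), LRRK2 (−1.11) and EPB41L4A (−1.01) on the right, while the members stay within 0.27 of 0.

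The genes whose pattern was most like that of each member were sought among the 9452 tested genes with a mean of at least 10 CPM, by the root-mean-square difference of mean-centred log2 CPM over the 9 samples. For RDX the nearest was the Hippo kinase STK3, with a difference of 0.0117 where RDX itself varied by 0.0631 about its mean, and the next was VEZF1 (0.0195). STK3 was at 36.3, 40.1 and 37.1 CPM in the 3 groups, and its order, the same as that of RDX, follows from this choice. How near the closest of so many genes would lie without any link was not tested. For SLK the nearest were CEP57 (0.0197) and ZDHHC20 (0.0218), where SLK varied by 0.106. For STK10 they were ABL1 (0.0264) and CILK1 (0.0309), where STK10 varied by 0.111. For MSN they were LTO1 (0.0323) and PTBP3 (0.0377), where MSN varied by 0.117, and for EZR they were EMD (0.0227) and SND1 (0.0240), where EZR varied by only 0.0486.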

How the data were processed

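Per the labels and the study's methods, the authors made strand-specific poly(A) libraries, aligned reads to GRCh38.p13 with HISAT2 2.2.1, used SAMtools 1.1.3 and counted exon reads per Ensembl gene with HTSeq 0.13.5; the deposited values are raw counts, and the strand setting is not given in the sources used here. Ensembl ids were matched to GENCODE symbols (60463 of 60664), and sequences come from GENCODE on the same build. All 9 samples were fitted together with edgeR 4.0.16 (quasi-likelihood test, TMM, filterByExpr, 1 coefficient per group), with Benjamini-Hochberg adjustment over 18264 genes and a threshold of 0.05. DESeq2 1.42.0, the tool the study used, was an alternative, as were other scalings and filters. SE is the log2 fold change over the root of F. In simulated data for the first comparison, the fit called 22.4% of genes given a log2 change of 0.25 and 72.7% at 1. It called 0.0609% of the unchanged genes. Named genes were the members, fixed genes, not all of which are reported here, up to 3 called genes of lowest adjusted p per list and comparison, copies of members, and the 2 genes most like each member. Members and lists were chosen with earlier results of these data known. Same-numbered samples of different groups did not deviate together (correlations −0.0546 to 0.0904), so the numbers were not used as pairs.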

Additional observations from a re-analysis of the deposited data

How the results depend on the processing

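For the hairpin at 8 cP, the MSN, SLK and STK10 calls were kept in all 17 alternatives each. The number of members called for viscosity was 0 with no filter and 0 to 2 when a sample was left out. RDX for viscosity was 0.14 with no filter (adjusted p = 0.0573) and 0.12 to 0.16 leaving out a sample. RDX for the hairpin was −0.12 with upper quartile scaling, −0.11 with DESeq2, −0.11 with at least 10 counts in every sample and −0.12 to −0.11 leaving out a sample. Leaving out a sample gave −0.037 to 0.029 for EZR and 0.064 to 0.15 for STK10 with viscosity, and −0.19 to −0.095 for STK10 in the third comparison (shTRPV4 beside SC in plain medium), where library totals gave −0.13. Leaving out a sample, the pathway counts ran from 5 to 23 for viscosity and from 12 to 20 for the hairpin, where all alternatives together reached 22. The differences of STK10 over SLK changed sign when a sample was left out (−0.018 to 0.096 for viscosity, −0.063 to 0.042 for the hairpin, −0.026 to 0.089 in the third comparison). With the longest transcript the ERM shares were 46.8% EZR, 15.6% RDX and 37.6% MSN, and with the MANE Select length, chosen after seeing the data, 41.5%, 13.7% and 44.7%. Genes near 0 changed sign: TRPV4 for viscosity (0.00016 with DESeq2, −0.33 to 0.27 leaving out a sample), RHOA for the hairpin (0.0066 with library totals) and in the third comparison (−0.0088 with upper quartile scaling, −0.0097 to 0.035 leaving out a sample), NF2 (−0.074 to 0.13 for viscosity, −0.00096 to 0.15 for the hairpin) and NHERF1 (−0.064 to 0.046 for viscosity). Of 1287 values of named genes that are no members, 1181 kept direction and side of the threshold, 87 lost the call, 7 gained it and 12 changed sign. Where fewer samples were fitted the test had less power; other causes were not tested. With the replicate number as a block, 1, 3 and 3 members were called, as without it.

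With 3 samples a group, an exact test cannot reach 0.05, and changes of the size of EZR were within the interval of no change. RNA counts say nothing of phosphorylation, the step by which SLK and STK10 act.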
